A study of Mus musculus with 6 samples.

Results

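The genes examined here were 40 blood and lymphatic endothelial and angiogenic factor genes, taken by symbol from a list, out of 33184 gene IDs in the deposited table. All 40 were in the table, and 39 passed a filter at a mean of 0.5 FPKM (reads scaled to gene length and library total). Prox1 was the member below it. The values came from dorsal skin wounds of db/db mice, a leptin receptor mutant line on the C57BL/Ks background with obesity and diabetes, wounded with a 6 mm punch. The mutation was shared by both groups. NC (3 libraries) received a control siRNA and SFRP2-siRNA (3 libraries) an siRNA against Sfrp2, a secreted modulator of Wnt signalling. Injections were given beside the wound at dpi1 (days post-injury) and tissue was taken at dpi4, although the sample titles carry day 3. The ages of the mice were not given in the sources used here. Neither do the labels say whether each library was a separate animal, so p-values measure the spread between these libraries, which may be partly technical. The treated libraries are numbered like the 3 siRNA sequences of the study, so each may have received a different one. The NC libraries are numbered in the same way although the study lists a single control sequence, so the numbers may only mark replicates.

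New vessels in a wound sprout from existing venules and capillaries. VEGF ligands made by keratinocytes, macrophages and fibroblasts act on VEGF receptors of the endothelium. Tip cells, which make the Notch ligand Dll4 and apelin, extend the sprout. Angiopoietins acting on the receptor Tek set whether a vessel is quiet or loosened for sprouting, and activated venules display selectins and adhesion molecules that bring leukocytes into the wound. VEGF-C and VEGF-D act on Flt4 and drive lymphatic vessels.

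Sfrp2, the siRNA target, had 11.6, 40.6 and 14.1 FPKM in NC 1, 2 and 3 and 50.6, 54.6 and 55.2 FPKM in SFRP2-siRNA 1, 2 and 3. The target RNA was thus higher in the libraries labelled SFRP2-siRNA (log2 fold change 1.45, SE 0.43, exact permutation p = 0.1). All directions below are therefore those of the labels, and these RNA values show no loss of Sfrp2. The paper reports less SFRP2 protein by staining in siRNA-treated diabetic wounds, in a figure marked dpi3. Protein was not measured here, and the stated collection day of this tissue was dpi4. The libraries rested on 42.93 M to 47.12 M reads, as implied by the FPKM values. SFRP2-siRNA 1 stood apart from its group, with correlations across genes of 0.893 and 0.889 with SFRP2-siRNA 2 and 3, against 0.976 between those libraries. Keratinocyte markers were present in all 6 libraries, as skin requires (summed level of 7 genes 3568 to 7971 FPKM).

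Of the 39 members tested, 0 passed the threshold (adjusted p under 0.05 and an absolute log2 fold change above 1 with limma), as did 0 of all 16005 genes, or 0%. The study, which tested counts at these thresholds, reports genes passing in both directions, more of them lower than higher. The cause of this difference was not tested. The smallest adjusted limma p of a member was 0.518. Fold changes are differences of mean log2(FPKM + 1), SFRP2-siRNA minus NC. They were above 0 for 27 members and below 0 for 12, while 71.8% of all genes tested were above 0. The median was 0.14 for the members and 0.13 for all genes, and 22 members lay above the median of all genes and 17 below it. At an unadjusted limma p under 0.05 there were 4 members higher (Vegfd, Angpt2, Pdpn and Ackr1; 6.72% of all genes) and 0 lower (2.86% of all genes). The groups did not overlap for 3 higher members, Vegfd, Angpt2 and Ackr1 (13.9% of all genes), and for 1 lower member, Vegfb (3.92% of all genes). After median-of-ratios scaling, which put the median of all genes at 0.0046, Ackr1 was the 1 member that remained at an unadjusted p under 0.05 and the 1 higher member without overlap. Without NC 1 no member was at an unadjusted p under 0.05, and without SFRP2-siRNA 3 the count was 11. The shares over all genes in these other fits are not given here, so their counts do not set the members apart from other genes. With 3 against 3 libraries the exact permutation p cannot go below 0.1, its value for Vegfd, Angpt2, Ackr1 and Vegfb; for Pdpn it was 0.2. A share of reads falls alike when fewer endothelial cells are present and when each holds less RNA, and bulk tissue cannot tell these apart.

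**Figure D1:**
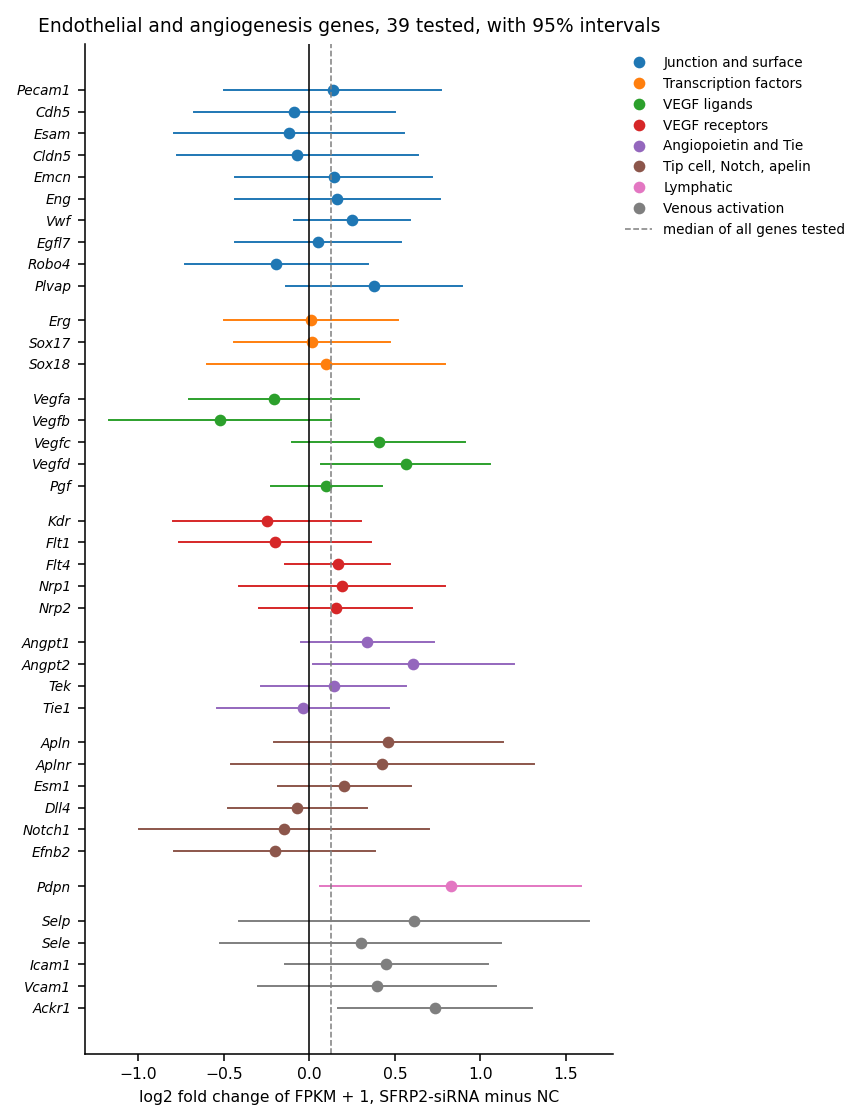
Log2 fold change of FPKM + 1 (x axis) for the 39 members tested, coloured by role, with 95% intervals from limma; the dashed line is the median of all genes tested, 0.13. The intervals of Vegfd, Angpt2, Pdpn and Ackr1 lie above 0 before adjustment, and those of the other 35 members cross it.

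The junction and surface genes of blood endothelium overlapped between the groups in all 10 cases. Pecam1, the junction protein CD31, had 17.9, 22.0 and 13.9 FPKM in NC 1, 2 and 3 and 28.0, 17.5 and 15.0 FPKM in SFRP2-siRNA 1, 2 and 3. Its group means were 17.9 ± 4.05 and 20.2 ± 6.88 FPKM (SD, n = 3 each), and the groups overlapped. The log2 fold change was 0.14 (95% interval -0.50 to 0.77), and it was -0.015 after median-of-ratios scaling. The paper reports fewer CD31-positive vessels by staining in siRNA-treated diabetic wounds, a protein measure that was not made here. Cdh5, the cadherin of endothelial junctions, had 29.9, 33.2 and 20.4 FPKM in NC and 33.2, 24.8 and 20.4 FPKM in SFRP2-siRNA. NC 3 and SFRP2-siRNA 3 were the lowest libraries of their groups for both genes. The log2 fold change of Cdh5 was -0.09, and the other junction genes, Esam and Cldn5, had -0.12 and -0.07. Egfl7, a secreted vascular matrix protein, and Robo4, a guidance receptor of quiet vessels, had log2 fold changes of 0.05 and -0.19. Robo4 had 5.34, 4.84 and 3.37 FPKM in NC and 5.12, 3.67 and 2.78 FPKM in SFRP2-siRNA, and its groups overlapped. Cdh5 and Cldn5 were above 0 after rescaling to equal sums, and Egfl7 was below 0 after median-of-ratios scaling.

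Plvap, which forms the diaphragms of fenestrae and caveolae, had the highest level of the surface genes. It had 46.5, 40.1 and 36.2 FPKM in NC 1, 2 and 3 and 69.0, 52.4 and 41.7 FPKM in SFRP2-siRNA 1, 2 and 3. The groups overlapped only in SFRP2-siRNA 3, which lay below NC 1, and the log2 fold change was 0.38 (SE 0.22, unadjusted limma p = 0.124, exact permutation p = 0.2). Without SFRP2-siRNA 1 it was 0.19. Vwf, the clotting factor stored by endothelium, had 2.02, 2.43 and 1.95 FPKM in NC and 3.34, 2.42 and 2.45 FPKM in SFRP2-siRNA, a log2 fold change of 0.25. Its treated libraries 2 and 3 were near NC 2. Eng, a co-receptor for BMP9 and TGF-β, had 23.9, 28.5 and 17.9 FPKM in NC and 34.9, 24.6 and 20.2 FPKM in SFRP2-siRNA. Emcn, a sialomucin of venous and capillary surfaces, had 4.66, 4.55 and 2.89 FPKM in NC and 6.00, 4.70 and 3.11 FPKM in SFRP2-siRNA. For Eng and Emcn the log2 fold changes were 0.16 and 0.14, and the groups overlapped.

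The transcription factors of the endothelium did not separate the groups either. Erg, an ETS factor that keeps endothelial identity, had 3.93, 4.61 and 3.33 FPKM in NC and 5.63, 3.60 and 2.99 FPKM in SFRP2-siRNA. Sox17, an arterial factor, had 1.75, 2.43 and 1.54 FPKM in NC and 2.67, 1.51 and 1.69 FPKM in SFRP2-siRNA. Sox18, a factor of vessels and early lymphatics, had 18.2, 10.2 and 11.5 FPKM in NC and 20.3, 11.8 and 11.1 FPKM in SFRP2-siRNA. Their log2 fold changes were 0.01, 0.02 and 0.10, and all 3 were below 0 after median-of-ratios scaling.

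SFRP2-siRNA 1 was the highest of the 6 libraries for 11 of the 13 junction, surface and transcription factor genes and for 27 of the 39 members tested. SFRP2-siRNA 3 was the lowest for 6 of the 13 and NC 3 for 5. As a measure of endothelial RNA, an endothelial core was taken as the mean log2(FPKM + 1) of Pecam1, Cdh5, Esam, Cldn5, Egfl7, Robo4, Tie1 and Erg. It was 3.69, 3.70 and 3.31 in NC 1, 2 and 3 and 3.98, 3.42 and 3.18 in SFRP2-siRNA 1, 2 and 3. The groups differed by -0.039 on the log2 scale, with SDs of 0.22 in NC and 0.41 in SFRP2-siRNA (n = 3 each), and the range over all libraries was 0.80. The core left out Plvap, Vwf, Eng and Emcn, with log2 fold changes of 0.38, 0.25, 0.16 and 0.14. The other junction and surface genes, all in the core, had lower ones. The group difference of the core therefore depends in part on the genes chosen.

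**Figure D2:**
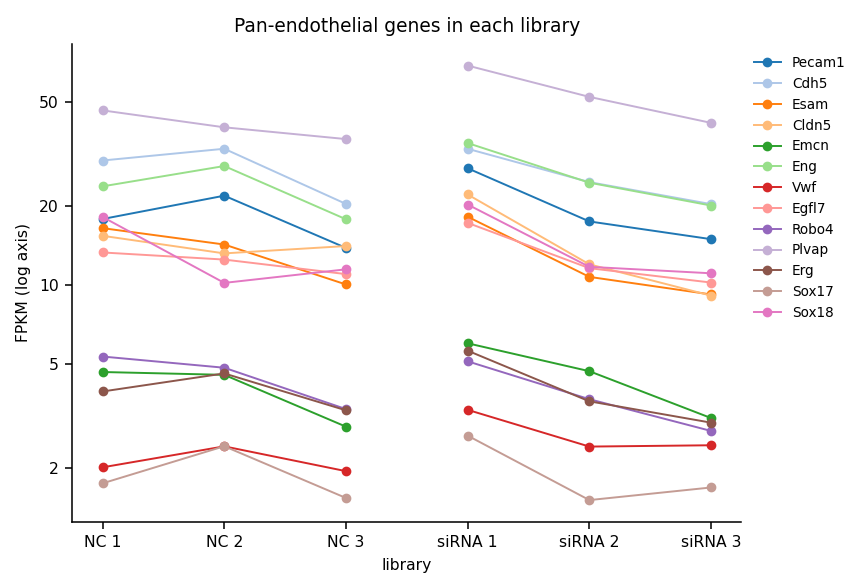
FPKM (log axis) of the 13 junction, surface and transcription factor genes in each library, 1 line per gene within each group. The lines of most genes have a like shape, with SFRP2-siRNA 1 highest for 11 of the 13 genes.

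The VEGF ligands went different ways. Vegfa, the main signal for sprouting, had 38.1, 36.8 and 25.5 FPKM in NC 1, 2 and 3 and 32.3, 30.4 and 23.5 FPKM in SFRP2-siRNA 1, 2 and 3. The groups overlapped, and the log2 fold change was -0.21 (95% interval -0.70 to 0.29). Vegfb, a ligand of Flt1 linked to lipid uptake, had 29.1, 14.5 and 14.5 FPKM in NC and 13.6, 11.9 and 11.9 FPKM in SFRP2-siRNA. All 3 treated libraries lay below all NC libraries, but NC 1 lay far above the other 5. The log2 fold change was -0.52 (SE 0.27, unadjusted limma p = 0.0983, exact permutation p = 0.1), and without NC 1 it was -0.20.

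Vegfd and Vegfc, the lymphatic ligands, had the higher values in the treated group. Vegfd had 4.11, 7.35 and 5.72 FPKM in NC and 10.2, 8.66 and 7.54 FPKM in SFRP2-siRNA. Each treated library was above each NC library, with NC 2 just under SFRP2-siRNA 3. Group means of 5.73 ± 1.62 and 8.80 ± 1.32 FPKM (SD, n = 3 each) were 1.54-fold apart, with a log2 fold change of 0.56 (SE 0.21, unadjusted limma p = 0.0314, exact permutation p = 0.1). Vegfc had 1.31, 1.996 and 1.44 FPKM in NC and 3.51, 2.19 and 1.72 FPKM in SFRP2-siRNA. Here NC 2 lay above SFRP2-siRNA 3, and the log2 fold change was 0.41 (SE 0.21, unadjusted limma p = 0.0988, exact permutation p = 0.2). Without SFRP2-siRNA 1 it was 0.20. Pgf, placental growth factor, had 1.03, 1.56 and 1.06 FPKM in NC and 1.44, 1.49 and 1.17 FPKM in SFRP2-siRNA, with NC 2 above all treated libraries and a log2 fold change of 0.10.

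The groups overlapped for all 5 receptors of these ligands. Kdr (VEGFR2), the main signalling receptor, had 5.96, 6.36 and 4.30 FPKM in NC and 6.28, 4.23 and 3.27 FPKM in SFRP2-siRNA. Flt1 (VEGFR1), a high-affinity receptor that also traps ligand, had 3.97, 4.59 and 2.68 FPKM in NC and 4.39, 2.78 and 2.30 FPKM in SFRP2-siRNA. The log2 fold changes were -0.25 (SE 0.23) for Kdr and -0.20 (SE 0.24) for Flt1. Without SFRP2-siRNA 1 they were -0.45 and -0.41, and without SFRP2-siRNA 3 -0.069 and -0.052. In both genes SFRP2-siRNA 2 and 3 were low and SFRP2-siRNA 1 was among the NC values. Flt4 (VEGFR3), the receptor for VEGF-C and VEGF-D, had 0.961, 1.19 and 0.745 FPKM in NC and 1.34, 1.03 and 1.22 FPKM in SFRP2-siRNA. The co-receptors Nrp1 and Nrp2 had 4.55, 8.45 and 4.70 and 5.74, 9.92 and 7.68 FPKM in NC. In SFRP2-siRNA they had 8.59, 5.91 and 5.72 and 8.65, 8.49 and 8.62 FPKM. Flt4, Nrp1 and Nrp2 had log2 fold changes of 0.17, 0.19 and 0.15, and the groups overlapped in each.

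**Figure D3:**
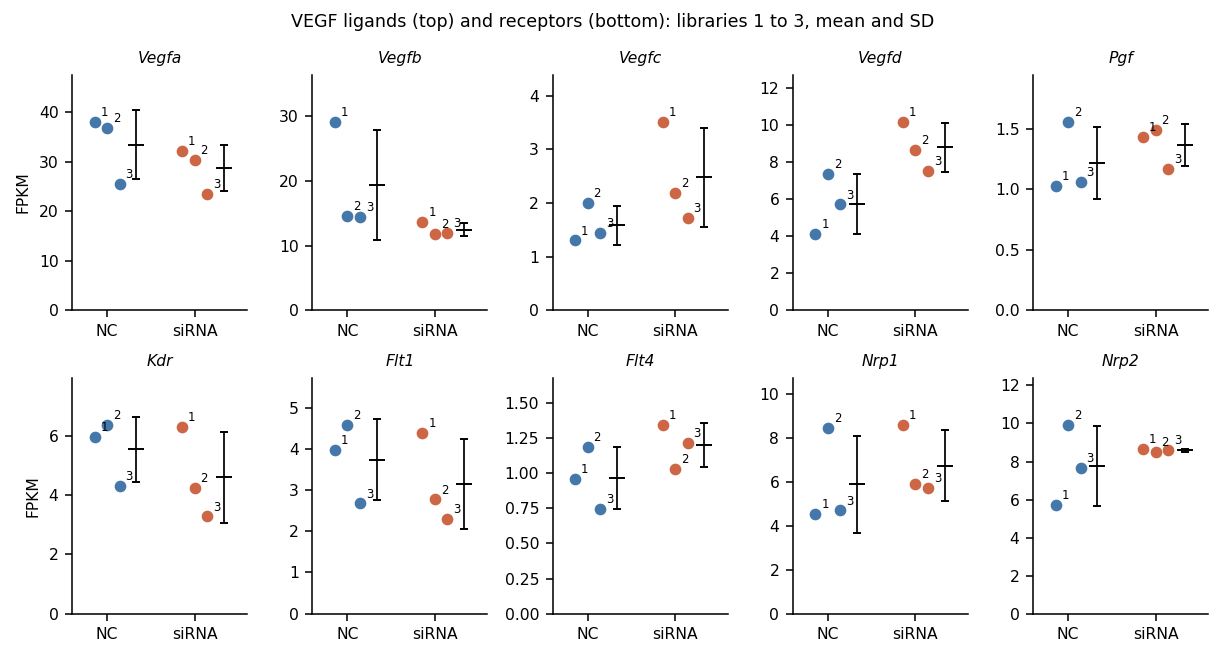
FPKM of the 5 VEGF ligands (top) and 5 receptors (bottom) in NC and SFRP2-siRNA; points are libraries 1 to 3 and bars the mean and SD of each group. The groups do not overlap for Vegfd (higher in SFRP2-siRNA) and Vegfb (lower, with NC 1 at 29.1 FPKM), and overlap for the other 8.

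Among the angiopoietins, Angpt2 separated the groups. Angpt2, which endothelial cells release to loosen vessels, had 3.19, 4.71 and 3.57 FPKM in NC 1, 2 and 3 and 9.37, 5.40 and 4.82 FPKM in SFRP2-siRNA 1, 2 and 3. All treated libraries were above all NC libraries, SFRP2-siRNA 3 by a small margin. The means of 3.82 ± 0.79 and 6.53 ± 2.48 FPKM (SD, n = 3 each) were 1.71-fold apart. The log2 fold change was 0.61 (SE 0.25, unadjusted limma p = 0.0441, exact permutation p = 0.1), and 0.35 without SFRP2-siRNA 1. Angpt1, the ligand from mural and mesenchymal cells that stabilises vessels, had 1.28, 1.44 and 0.981 FPKM in NC and 2.37, 1.77 and 1.39 FPKM in SFRP2-siRNA. Only SFRP2-siRNA 3 lay among the NC values, and the log2 fold change was 0.34 (SE 0.16, unadjusted limma p = 0.0768, exact permutation p = 0.2). Without SFRP2-siRNA 1 it was 0.21. The receptor Tek had 4.67, 7.03 and 4.77 FPKM in NC and 6.98, 5.86 and 5.43 FPKM in SFRP2-siRNA. Tie1, its orphan partner, had 9.04, 9.74 and 6.73 FPKM in NC and 10.7, 7.77 and 6.48 FPKM in SFRP2-siRNA. Both receptors overlapped between the groups, with log2 fold changes of 0.14 and -0.04 (Tie1 0.047 after rescaling to equal sums).

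Tip cell and Notch genes overlapped between the groups. Apln, the apelin ligand of tip cells, had 2.48, 4.42 and 2.40 FPKM in NC and 6.36, 4.72 and 2.95 FPKM in SFRP2-siRNA, a log2 fold change of 0.46 (SE 0.28). Its receptor gene Aplnr had 5.59, 9.20 and 4.53 FPKM in NC and 13.6, 9.56 and 4.88 FPKM in SFRP2-siRNA, a log2 fold change of 0.43 (SE 0.37). In both genes NC 2 was the high NC library and SFRP2-siRNA 3 the low treated one. Without SFRP2-siRNA 1 the values were 0.25 and 0.13. Esm1, a proteoglycan of tip cells, had 0.822, 0.947 and 0.780 FPKM in NC and 1.65, 1.03 and 0.789 FPKM in SFRP2-siRNA. Dll4, the Notch ligand of tip cells, ranged from 1.71 to 2.72 FPKM and had a log2 fold change of -0.07. Efnb2, an arterial ephrin, had 7.98, 12.4 and 14.3 FPKM in NC and 7.40, 10.5 and 11.5 FPKM in SFRP2-siRNA. Notch1 had 7.44, 9.43 and 12.3 FPKM in NC and 4.65, 9.51 and 13.5 FPKM in SFRP2-siRNA. SFRP2-siRNA 1, the highest library for most members, was the lowest for both Notch1 and Efnb2. Both genes are also expressed in epidermis, whose part in these values was not tested. Keratinocyte markers were mixed in that library: Krt5 and Krt14 were highest there, while Krt10 lay below all NC libraries.

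Of the lymphatic genes, Pdpn (podoplanin) is also made by fibroblasts, macrophages and wound keratinocytes. It had 15.1, 30.2 and 14.0 FPKM in NC and 33.0, 43.1 and 26.9 FPKM in SFRP2-siRNA. NC 2 lay within the range of the treated group. The log2 fold change was 0.83 (SE 0.32, unadjusted limma p = 0.0374, exact permutation p = 0.2). Prox1, the factor that defines lymphatic endothelium, was at 0.205, 0.272 and 0.242 FPKM in NC and 0.280, 0.221 and 0.534 FPKM in SFRP2-siRNA, on 76 to 211 reads. These groups overlapped.

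The 5 venous activation genes all had higher group means in SFRP2-siRNA, and each lay above the median of all genes. Their median log2 fold change was 0.45, against 0.13 for all genes. Ackr1, a receptor of postcapillary venules that binds chemokines without signalling, had 3.53, 4.95 and 4.38 FPKM in NC 1, 2 and 3 and 11.2, 7.26 and 5.68 FPKM in SFRP2-siRNA 1, 2 and 3. Every treated library was above every NC library. The means of 4.29 ± 0.71 and 8.04 ± 2.83 FPKM (SD, n = 3 each) were 1.87-fold apart, with a log2 fold change of 0.74 (SE 0.24, unadjusted limma p = 0.0182, exact permutation p = 0.1), on 219 to 674 reads. Selp, the selectin stored with Vwf, had 1.11, 2.69 and 0.638 FPKM in NC and 4.82, 2.67 and 1.13 FPKM in SFRP2-siRNA. Sele, the selectin induced by cytokines, had 0.560, 1.61 and 0.397 FPKM in NC and 2.10, 1.41 and 0.423 FPKM in SFRP2-siRNA. The selectins had the widest errors of the 5 genes, and their log2 fold changes were 0.61 (SE 0.43) and 0.30 (SE 0.35).

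The integrin ligand Icam1, also present on leukocytes and keratinocytes, had 5.30, 8.80 and 5.97 FPKM in NC and 12.4, 9.33 and 6.90 FPKM in SFRP2-siRNA. Vcam1, a ligand for α4 integrins, had 2.67, 4.39 and 1.91 FPKM in NC and 5.77, 4.15 and 2.75 FPKM in SFRP2-siRNA. For each the groups overlapped through a high NC 2, and the log2 fold changes were 0.45 (SE 0.25) and 0.40 (SE 0.29). Without SFRP2-siRNA 1 the values were 0.26 for Selp, 0.052 for Sele, 0.26 for Icam1, 0.19 for Vcam1 and 0.50 for Ackr1.

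**Figure D4:**
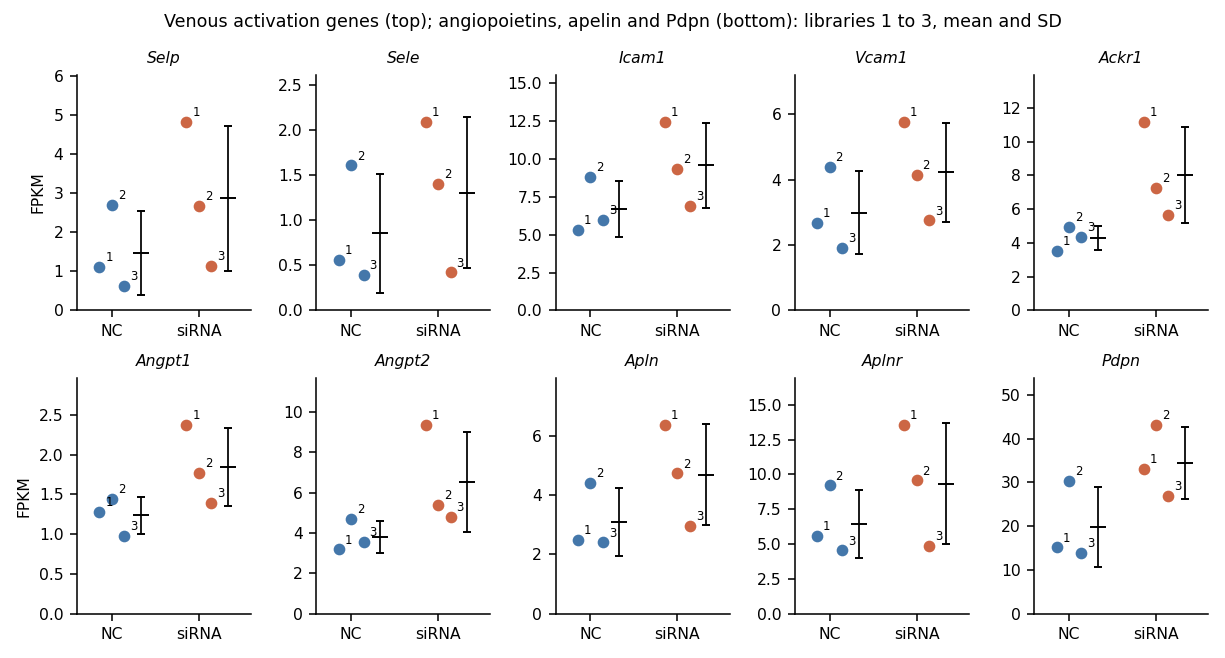
FPKM of the 5 venous activation genes (top) and of Angpt1, Angpt2, Apln, Aplnr and Pdpn (bottom); points are libraries 1 to 3 and bars the mean and SD of each group. The groups do not overlap for Ackr1 and Angpt2, and NC 2 is the highest NC library in all 10.

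The sequences before the start sites of the venous activation genes are shown, with those of Kdr and Flt1, which had fold changes of the other sign. They are the 250 bases upstream of the RefSeq start site in GRCm38.p6. The set of sequences at hand covered 29 of the 40 members and did not include Vcam1. Capitals mark GGAAG, the core of ETS factor motifs, and GGANNTTCC, a kB-type motif, each on either strand, so that the first may also read as CTTCC. Ackr1 lies at chr1:173333504-173333753 (minus strand), Selp at chr1:164115014-164115263 (plus strand) and Sele at chr1:164047984-164048233 (plus strand). Icam1 lies at chr9:21015690-21015939 (plus strand), Kdr at chr5:75978456-75978705 (minus strand) and Flt1 at chr5:147726012-147726261 (minus strand).
Ackr1: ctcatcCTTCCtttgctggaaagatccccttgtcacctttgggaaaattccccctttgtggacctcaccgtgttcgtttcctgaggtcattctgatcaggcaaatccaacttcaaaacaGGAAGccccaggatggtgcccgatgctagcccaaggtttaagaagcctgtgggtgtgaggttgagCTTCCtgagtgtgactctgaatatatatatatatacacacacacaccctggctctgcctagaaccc
Selp: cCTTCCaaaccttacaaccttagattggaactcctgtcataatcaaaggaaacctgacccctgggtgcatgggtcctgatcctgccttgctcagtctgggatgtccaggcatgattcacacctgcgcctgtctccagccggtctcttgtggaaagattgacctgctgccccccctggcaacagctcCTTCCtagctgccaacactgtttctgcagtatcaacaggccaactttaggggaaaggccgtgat
Sele: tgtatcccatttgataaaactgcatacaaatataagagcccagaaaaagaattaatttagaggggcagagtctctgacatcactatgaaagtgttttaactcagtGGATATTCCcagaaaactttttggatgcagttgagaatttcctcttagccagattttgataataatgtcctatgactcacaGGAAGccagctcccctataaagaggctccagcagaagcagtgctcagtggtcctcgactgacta
Icam1: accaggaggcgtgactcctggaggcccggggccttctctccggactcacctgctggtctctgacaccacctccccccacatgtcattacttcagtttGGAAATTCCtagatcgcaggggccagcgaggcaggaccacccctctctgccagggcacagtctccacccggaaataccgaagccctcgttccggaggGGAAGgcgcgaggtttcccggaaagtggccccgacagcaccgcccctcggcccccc
Kdr: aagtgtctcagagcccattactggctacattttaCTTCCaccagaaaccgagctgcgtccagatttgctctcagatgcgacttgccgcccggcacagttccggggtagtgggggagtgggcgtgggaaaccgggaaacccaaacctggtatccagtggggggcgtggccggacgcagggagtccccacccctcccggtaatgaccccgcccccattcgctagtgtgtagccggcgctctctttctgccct
Flt1: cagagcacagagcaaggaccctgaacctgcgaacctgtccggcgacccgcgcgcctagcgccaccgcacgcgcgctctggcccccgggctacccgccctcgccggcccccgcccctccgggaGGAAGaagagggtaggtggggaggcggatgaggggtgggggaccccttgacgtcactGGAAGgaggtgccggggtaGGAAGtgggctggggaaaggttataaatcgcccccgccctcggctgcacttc

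The kB-type letters were in the Sele sequence, starting 145 bases before the start site, and in the Icam1 sequence, 153 bases before it. No other of the 36 windows of members held them (some genes have several start sites), and 3.6% of all 32851 windows did. The same ends with a longer spacing were not counted, and the Ackr1 sequence holds such letters (ggaaaattcc). GGAAG occurred 3 times in the Ackr1 and Flt1 sequences, 2 times in Selp and 1 time in Sele, Icam1 and Kdr. It was in 23 of the 36 member windows and in 64.1% of all windows. The match describes the letters and does not show a bound factor.

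Because the endothelial core ranged over 0.80 between libraries, each member was also set against the core of its own library. On this scale (log2(FPKM + 1) minus the core) the groups did not overlap for 11 higher members, Emcn, Eng, Plvap, Vegfc, Vegfd, Angpt1, Angpt2, Apln, Icam1, Vcam1 and Ackr1 (5.07% of all genes), and for 3 lower members, Kdr, Flt1 and Robo4 (2.25% of all genes). These shares are not like for like. Subtracting the core lowered the median SD within groups from 0.34 to 0.25 for the 31 members outside the core and raised it from 0.21 to 0.41 for all genes. Robo4 is itself part of the core. Plvap, Eng and Emcn are surface genes left out of it that had higher fold changes than those it holds, so their place above it follows in part from that choice. On this scale 0 members passed the adjusted threshold (0.0562% of all genes), and the limma p was under 0.05 before adjustment for Pdpn and Ackr1 (2.07% of all genes). Limma draws the error of each gene towards that of all genes, which the subtraction raised. These p-values therefore do not measure the spread of single members: Kdr had SDs of 0.045 in NC and 0.041 in SFRP2-siRNA but an SE of 0.35.

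Ackr1 was at -1.51, -1.13 and -0.88 in NC 1, 2 and 3 and at -0.37, -0.38 and -0.44 in SFRP2-siRNA 1, 2 and 3. The treated libraries, which ran from 5.68 to 11.2 FPKM, thus lay between -0.44 and -0.37 relative to the core, above all NC libraries. Angpt2 was at -1.62, -1.19 and -1.12 in NC and -0.61, -0.74 and -0.64 in SFRP2-siRNA. Plvap was at 1.88, 1.66 and 1.90 in NC and 2.15, 2.32 and 2.24 in SFRP2-siRNA. These 3 genes were higher relative to the core in every treated library, by 0.78, 0.65 and 0.42 between group means (exact permutation p = 0.1 each). Any gene whose groups do not overlap has that p, so it adds nothing to the lack of overlap. Kdr was at -0.89, -0.82 and -0.91 in NC and -1.12, -1.04 and -1.08 in SFRP2-siRNA. Flt1 was at -1.37, -1.22 and -1.43 in NC and -1.55, -1.50 and -1.45 in SFRP2-siRNA. Both VEGF receptors were lower relative to the core in every treated library, by 0.21 and 0.16 between group means, with a narrow gap for Flt1.

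The choice of core genes mattered for some of these members. Each of the 8 core genes was also used alone as the reference. The groups were apart for Ackr1 and Angpt2 with all 8 references, for Plvap with 7, and for Kdr and Flt1 with 5. Over these references the difference of group means ran from 0.60 to 0.93 for Ackr1, 0.47 to 0.80 for Angpt2 and 0.24 to 0.57 for Plvap. It ran from -0.38 to -0.052 for Kdr and from -0.34 to -0.0077 for Flt1, so for Flt1 the smallest value was close to 0. Of the other members without overlap, Vegfc and Apln were apart with 6 references, Angpt1 and Icam1 with 5, Vegfd and Eng with 4, Emcn with 3 and Vcam1 with 2. Robo4 was apart with 2 of the 7 references other than itself. Without Robo4 in the core, the groups overlapped for Emcn, Eng and Vcam1. With Pecam1 alone as the reference, Angpt2, Apln and Ackr1 were the higher members still apart.

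**Figure D5:**
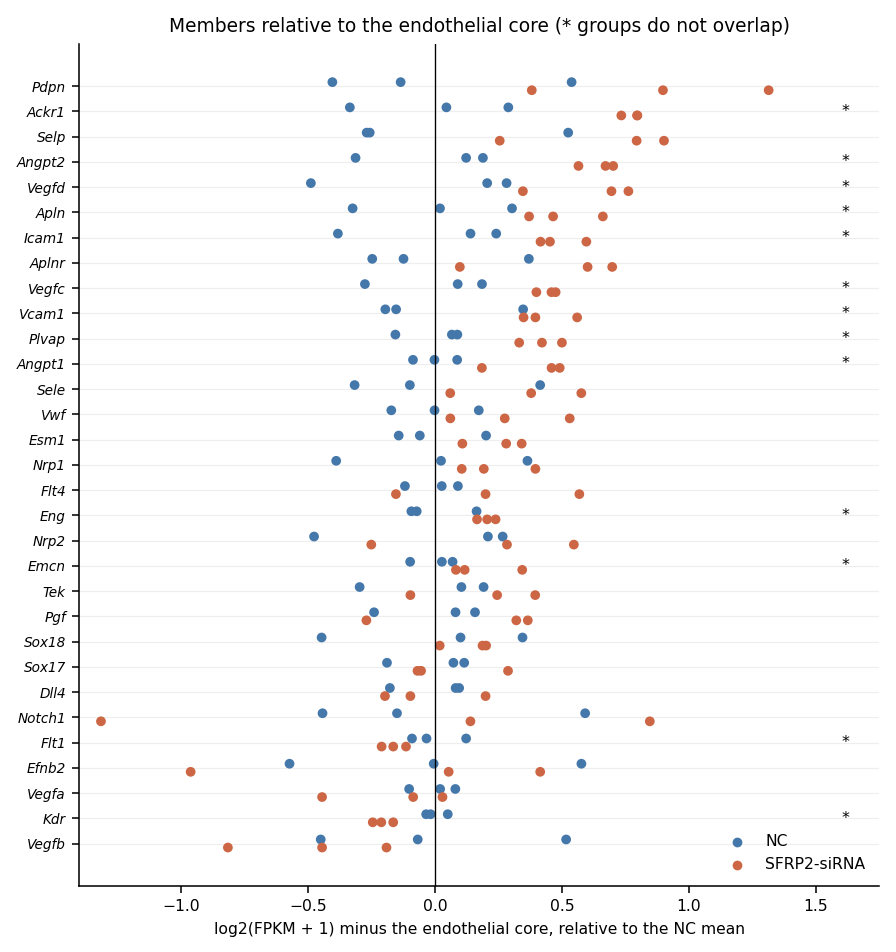
Log2(FPKM + 1) minus the endothelial core of the same library, relative to the NC mean (x axis), for the 31 members tested outside the core, ordered by the difference of group means; points are libraries and asterisks mark groups that do not overlap. The treated libraries of Ackr1 and Angpt2 lie close together above all NC libraries, and those of Kdr and Flt1 below.

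Other genes of these pathways were listed as well, 75 in all, of which 67 were tested. Among them 8 were higher (6.72% of all genes) and 1 lower (2.86% of all genes) at an unadjusted limma p under 0.05. The groups did not overlap for 12 higher (13.9% of all genes) and 1 lower (3.92% of all genes), and the median log2 fold change was 0.12, against 0.13 for all genes. In the further endothelial list, 20 genes, 3 were higher and 1 lower. Klf2, a factor induced by flow, had 13.8, 17.8 and 12.7 FPKM in NC and 21.4, 18.8 and 19.4 FPKM in SFRP2-siRNA. Lmo2, a partner of Tal1, had 5.57, 9.91 and 7.50 FPKM in NC and 12.4, 10.4 and 10.8 FPKM in SFRP2-siRNA. The groups did not overlap for either, and the log2 fold changes were 0.41 and 0.52 (unadjusted limma p = 0.0361 and 0.0384, exact permutation p = 0.1 each). The lower gene was Sox7, named after its values were seen, at 4.45, 6.58 and 5.09 FPKM in NC and 3.82, 4.36 and 2.69 FPKM in SFRP2-siRNA.

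All 6 tested genes of the further lymphatic list were above 0 (71.8% of all genes), with a median log2 fold change of 0.48. At an unadjusted limma p under 0.05 2 were higher (6.72% of all genes), and the groups did not overlap for 3 (13.9% of all genes). Ccl21a, the chemokine of lymphatic vessels, had 6.07, 6.38 and 11.9 FPKM in NC and 24.2, 16.3 and 17.7 FPKM in SFRP2-siRNA. Its log2 fold change was 1.20 (SE 0.27, unadjusted limma p = 0.00341, exact permutation p = 0.1), and its reads are uncertain because near-identical copies of the gene exist. Mmrn1, a multimerin of lymphatic endothelium and platelets, had 0.294, 0.473 and 0.543 FPKM in NC and 1.14, 0.707 and 1.92 FPKM in SFRP2-siRNA. Its groups did not overlap, with a log2 fold change of 0.62 (SE 0.21, unadjusted limma p = 0.0202, exact permutation p = 0.1). Neither gene passed adjustment over all genes.

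In the Notch, ephrin and guidance list 1 of 15 genes tested was higher at an unadjusted limma p under 0.05. Plxnd1, the semaphorin receptor of endothelium, had 15.5 ± 3.83 and 23.9 ± 4.45 FPKM (SD, n = 3 each), and Slit2, a Robo ligand, 0.501 ± 0.142 and 0.818 ± 0.104 FPKM. The groups overlapped in neither gene. Of 19 hypoxia-response and secreted angiogenic genes 1 was higher. Thbs2, an inhibitor of angiogenesis made by fibroblasts, had 28.1 ± 11.7 and 53.0 ± 5.95 FPKM, and Plau, the urokinase gene, 22.1 ± 5.64 and 29.6 ± 4.70 FPKM. Of 7 BMP and ALK1 genes 1 was higher. Id2, a BMP target in many cell types, had 16.5 ± 2.06 and 23.5 ± 0.92 FPKM, and Acvrl1, the ALK1 receptor of endothelium, 6.95 ± 1.18 and 9.82 ± 2.55 FPKM.

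Markers of other cells of the wound were counted as well, and 0 of them passed the adjusted threshold. The summed levels did not overlap between the groups for the macrophage, fibroblast and platelet lists and overlapped for the other lists. All 8 macrophage genes had a log2 fold change above 0 (71.8% of all genes) and 6 were higher at an unadjusted limma p under 0.05 (6.72% of all genes), with summed levels of 549 to 846 FPKM in NC and 907 to 1133 FPKM in SFRP2-siRNA. All 7 fibroblast genes were above 0 and all 7 had an unadjusted limma p under 0.05, with sums of 880 to 1942 and 2144 to 2248 FPKM. The 7 neutrophil genes were above 0, with sums of 1143 to 1765 and 988 to 5533 FPKM, as were the 4 platelet genes tested (114 to 154 and 180 to 346 FPKM) and the 6 skeletal muscle genes (3101 to 6048 and 4133 to 11420 FPKM). The 6 adipocyte genes were below 0, with sums of 1596 to 2057 and 782 to 2177 FPKM. Of the 7 mural cell genes 4 were above 0, with sums of 74.6 to 97.8 and 73.5 to 106 FPKM, and of the 7 keratinocyte genes 3 were, with sums of 4120 to 6958 and 3568 to 7971 FPKM. No marker of these lists that was in the table was at 0 in any library. Macrophages and fibroblasts can express Pdpn, Icam1, Vcam1, Vegfc, Vegfd and Angpt1, and platelets Selp and Vwf. The part of these cells in the values of these members, or of the endothelial core, was not tested.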

How the data were processed

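RNA-seq of wound tissue was analysed in 6 libraries, 3 NC and 3 SFRP2-siRNA, grouped by their titles. Per the submitters' processing notes HISAT2, featureCounts and Subread were used; versions, genome build and annotation are not given in the sources used here. The authors deposited 1 table of FPKM values for 33184 Ensembl gene IDs, of which 32582 had a symbol in the gene name table. With GENCODE vM21 gene lengths, 97.0% of genes gave whole reads in every library (within 0.02 reads), including all 40 members. Of values of 1 to 20 reads 64.6% were even, so mates may have been counted singly and reads may not be independent.

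Values were analysed as log2(FPKM + 1), a scale that understates changes of low genes. The filter was a mean FPKM of 0.5 or more across libraries, which left 16005 genes (114 without a symbol). The test was limma 3.58.1 in R 4.3.3 (lmFit, eBayes with an intensity trend, two-sided) with Benjamini-Hochberg adjustment over all of them, a design tested on simulated data. Called genes had an adjusted p under 0.05 and an absolute log2 fold change above 1. The study tested counts with these thresholds; FPKM values need a log scale. Single genes were also compared with a two-sided exact permutation test.

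The members and lists were chosen with earlier results of these data known. All members were named by role; in groups of over 5, per-library values were given for at least the 5 smallest p-values, the highest mean and Pecam1. From each further pathway list the 2 genes with the smallest p were named, and cell type lists were given as counts and sums. Alternatives were a pseudocount of 0.1, other filters and scalings, no intensity trend, a replicate block, sample weights and leaving out each library. Voom on the recovered reads and other endothelial references were chosen after seeing the data. No 2 libraries held identical values.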

Additional observations from a re-analysis of the deposited data

How the results depend on the processing

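No alternative brought a member past the adjusted threshold. Sfrp2 remained higher in SFRP2-siRNA, by 1.12 to 1.98 on the log2 scale. Of 657 fits of single members 610 kept their direction and 47 reversed, in 15 members with small fold changes; the cause was not tested. Ackr1 was higher in every fit, by 0.50 to 0.93, and its unadjusted limma p was 0.0659 without NC 1 and under 0.05 otherwise. That p ran from 0.0108 to 0.0818 for Vegfd, 0.0235 to 0.132 for Angpt2 and 0.00259 to 0.124 for Pdpn when 1 library was left out, and each of the 3 was above 0.05 without NC 1, NC 3, SFRP2-siRNA 1 or SFRP2-siRNA 2.

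The scaling shifted all genes: the median of their fold changes (log2) moved from 0.13 to 0.20 when sums were made equal and to 0.0046 by median-of-ratios scaling. The 4 members higher at an unadjusted limma p under 0.05 became 1 with median-of-ratios scaling or quantile normalization (Ackr1 in each), 2 relative to the endothelial core, and 0 (without NC 1) to 11 (without SFRP2-siRNA 3) when 1 library was left out. The 3 higher members without overlap became 1, 1 and 11, and 3 to 16 (16 without NC 2, 12 without SFRP2-siRNA 3); the 1 lower member became 3 relative to the core and 1 to 4 (4 without SFRP2-siRNA 1). Fewer libraries overlap less by construction. Shares over all genes are not given here for the scaled and leave-one-out fits, so these counts do not set the members apart from other genes. Relative to the core 9 genes of the whole table were called, none a member; in all other fits the count was 0.

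Reversed values were, with equal sums, Cdh5 0.0028, Cldn5 0.019 and Tie1 0.047; with median-of-ratios, Pecam1 -0.015, Egfl7 -0.097, Erg -0.12, Sox17 -0.089 and Sox18 -0.053; with quantile normalization, Egfl7 -0.059, Erg -0.12 and Sox17 -0.079; relative to the core, Tie1 0.0011; with sample weights, Pecam1 -0.010, Egfl7 -0.030, Erg -0.10, Sox17 -0.18 and Nrp1 -0.032; and with voom, Erg -0.0040. When 1 library was left out the ranges were -0.29 to 0.068 for Cdh5, -0.41 to 0.19 for Cldn5, -0.21 to 0.031 for Dll4, -0.16 to 0.20 for Egfl7, -0.036 to 0.35 for Emcn, -0.044 to 0.34 for Eng, -0.20 to 0.16 for Erg, -0.39 to 0.067 for Esam, -0.45 to 0.23 for Notch1, -0.023 to 0.33 for Nrp2, -0.11 to 0.31 for Pecam1, -0.15 to 0.14 for Sox17, -0.16 to 0.33 for Sox18 and -0.22 to 0.11 for Tie1. Other members kept their sign but moved by over 1.5 times, among them Vwf (0.14 to 0.32), Robo4 (-0.38 to -0.027), Vegfa (-0.38 to -0.072), Pgf (0.041 to 0.21), Flt4 (0.083 to 0.25), Tek (0.054 to 0.30), Esm1 (0.045 to 0.33) and Efnb2 (-0.43 to -0.032).

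Replicate numbers were not taken as pairs: deviations of same-numbered libraries correlated at -0.047, -0.15 and 0.38. With the replicate block 4 members were higher at an unadjusted limma p under 0.05 (Plvap, Angpt1, Pdpn and Ackr1) and 0 genes passed the adjusted threshold.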
